A study of Mus musculus with 6 samples.

Results

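Described here are 34 imprinted genes of the mouse other than Ndn, the gene of necdin. They were chosen by symbol from a list of well-known imprinted genes, and all 34 were found among the 54429 genes of the deposited table. They lie in 18 imprinted domains, from the Prader-Willi/Angelman domain with 7 of them to genes that are imprinted on their own. Levels are given as FPKM, fragments scaled by gene length and by library size. Of the 34 genes, 21 reached an FPKM of 0.5 in 2 or more of the 6 libraries. These 21 were tested, in a fit over all 16254 genes that met the same minimum. The other 13 lay below it.

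RNA was measured by total RNA sequencing of V1, the primary visual cortex, in 6 female mice of the strain C57BL, all 9 weeks of age. In each, an adeno-associated virus (AAV) that carries hairpin genes had been injected into V1, and each of 3 groups holds 2 libraries. The group shCSB/shNDN received hairpins against CSB, a DNA repair protein encoded by Ercc6, and against necdin. The group shCSB received the hairpin against CSB alone, and the group shControl a control hairpin, so every group carries virus and hairpin. The promoter of the hairpins, the interval between injection and dissection and the share of cells that took up virus are not given in the sources used here. The series text counts 2 mice per group, and libraries were taken as separate mice.

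Imprinted genes are expressed mainly or only from the copy inherited from the mother or from the father, following DNA methylation that was set in the germ line at imprinting control regions. ZFP57, a zinc finger protein of the early embryo, binds the methylated motif TGCCGC and helps to keep these marks. Many imprinted genes act on growth and on brain function, and several change which parental copy they use in neurons. All mice were of the same strain, so parental copies were not told apart, and each level is the sum over both.

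Stretches of sequence beside 3 gene starts show where genes described below begin; they are from RefSeq on GRCm38.p6, written 5′ to 3′. Peg3 and Usp29 start on opposite strands, and the first line is the whole stretch between their starts (chr7:6730420-6730582, plus strand) with CpG dinucleotides, the sites of methylation, in capitals. The second is the stretch just before the start of Nap1l5 (chr6:58907127-58907376, minus strand), the imprinted gene with the second highest FPKM. The third runs up to and just past the shared start of Snurf and of a Snrpn transcript in the Prader-Willi/Angelman domain (chr7:60005170-60005449, minus strand). In the second and the third, capitals mark the 6 bases of TGCCGC or of its reverse complement GCGGCA.

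Peg3 and Usp29: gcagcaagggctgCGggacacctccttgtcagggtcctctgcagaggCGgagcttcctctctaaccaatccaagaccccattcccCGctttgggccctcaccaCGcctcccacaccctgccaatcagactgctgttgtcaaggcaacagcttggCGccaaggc

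Nap1l5: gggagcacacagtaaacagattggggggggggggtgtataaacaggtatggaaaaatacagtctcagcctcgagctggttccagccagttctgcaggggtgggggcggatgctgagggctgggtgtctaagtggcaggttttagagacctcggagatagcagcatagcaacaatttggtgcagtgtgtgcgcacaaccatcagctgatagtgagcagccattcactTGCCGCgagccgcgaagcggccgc

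Snurf: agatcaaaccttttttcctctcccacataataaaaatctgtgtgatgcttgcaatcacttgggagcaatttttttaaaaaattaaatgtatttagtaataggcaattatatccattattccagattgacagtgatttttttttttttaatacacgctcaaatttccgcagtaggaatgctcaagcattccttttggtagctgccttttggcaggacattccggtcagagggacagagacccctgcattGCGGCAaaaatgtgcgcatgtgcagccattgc

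The stretch between Peg3 and Usp29 is 163 bases long and holds 5 CpG and no match to the motif on either strand. Promoter windows in RefSeq, which run from 250 bases before a start to 50 after it, were present for 30 of the 34 genes, 47 windows in all. TGCCGC, searched on both strands, was found in 12 of these 47 windows (25.5%) and in 3813 of all 32851 windows (11.6%). The windows with a match belonged to 11 of the 30 genes, Snrpn and Snurf through the same stretch. The share of all genes with a match was not counted. The median number of CpG was 12 in the windows of the imprinted genes and 7 over all windows. Windows of the same gene or of facing genes overlap, so they are not independent, and a match is a description of the letters only.

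The genes that the hairpins address were checked first. Ercc6 had FPKM values of 1.61 and 1.81 in shCSB/shNDN, 1.29 and 1.61 in shCSB, and 1.46 and 1.22 in shControl, so it showed no loss. Ndn had 16.8 and 41.0 in shCSB/shNDN, 47.9 and 38.1 in shCSB, and 56.1 and 49.8 in shControl. It was far below all other libraries only in replicate 1 of shCSB/shNDN, though both shCSB/shNDN libraries were below both of shControl. The log2 change of Ndn in shCSB/shNDN was -0.98 ± 0.39 (SE) against shControl and -0.68 ± 0.39 against shCSB (limma adjusted p = 0.362 and 0.686). Because Ercc6 does not bear out its label, the groups are to be read as the libraries labelled shCSB/shNDN and shCSB throughout.

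Libraries held 15731788 to 17365285 reads, so 3 reads, the limit that a count of 0 allows, equal 0.169 to 0.201 FPKM in a gene 1 kilobase long. Replicates of shCSB/shNDN differed most from each other, with a chi-square statistic over its degrees of freedom of 119, against 25.8 for shCSB and 11.7 for shControl. Replicate 2 of shCSB/shNDN had 435 genes with exactly 1 read, against 1597 to 1839 in the other libraries, and 1.41% of its reads were mitochondrial, against 4.95% to 7.65%. The summed FPKM of 12 microglia markers was 3275 and 926 in shCSB/shNDN, 385 and 443 in shCSB, and 299 and 293 in shControl. The sum over 12 neuron markers was 1675 and 1400 in shCSB/shNDN, 2011 and 1848 in shCSB, and 2051 and 2337 in shControl, so the microglia sums were highest and the neuron sums lowest in shCSB/shNDN. No marker of either list was at 0 in any library. All 12 neuron markers had a fitted change below 0 in shCSB/shNDN against either group, but not each was low in both libraries. Gad1 was at 42.7 in replicate 2 of shCSB/shNDN, against 29.8 to 35.7 in shCSB and shControl. C1qa alone made up 1006 and 236 of the microglia sums in shCSB/shNDN. Not every microglia marker rose in replicate 2 of that group. There P2ry12 was at 3.51, against 7.94 to 13.8 in shCSB and shControl, and Siglech was at 3.02, against 2.69 to 5.23. A list of 10 hypothalamus and thalamus markers summed to 14.8 and 52.8 in shCSB/shNDN, 10.4 and 11.0 in shCSB, and 8.93 and 9.27 in shControl. In replicate 2 of shCSB/shNDN the hypothalamic neuropeptide genes Avp, Oxt and Pomc had FPKM values of 23.1, 10.3 and 12.7, named here after their values were seen. In the other libraries none of the 3, Pomc included, was above 2.42. Other hypothalamic genes of the list were not raised in replicate 2 of shCSB/shNDN, where Pmch and Agrp were at 0 and Hcrt at 0.390. The meninges and fibroblast list, with 12 markers, summed to 24.9 and 21.9 in shCSB/shNDN, 27.0 and 23.4 in shCSB, and 14.9 and 10.1 in shControl. In bulk tissue, fewer cells of a type and less RNA per cell cannot be told apart, and the part of these differences in the values below was not tested.

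None of the 21 tested imprinted genes passed the threshold of 0.05 on the adjusted p in any comparison. In the libraries labelled shCSB/shNDN, Zrsr1, Impact, Usp29, Zdbf2, Inpp5f and Mirg were lower than in both shControl libraries and lower than in both shCSB libraries. Their means there were between 47.9% (Zdbf2) and 86.2% (Mirg) of those in shControl. Of all genes kept, 23.7% had both shCSB/shNDN libraries below both of shControl, and 18.4% below both of shCSB. The share of all genes below both groups at once was not counted. Gnas and Meg3 were above both shControl libraries, with means of 124% and 123%, and Gnas also above both of shCSB. Between shCSB and shControl the levels of 13 of the 21 genes overlapped, where 18.3% of all genes were above and 18.1% below without overlap.

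The 21 tested genes were counted by whether groups overlapped, beside the share of all genes kept. For shCSB/shNDN against shControl, 2 genes were above in both libraries (all genes, 20.7%) and 6 below (all genes, 23.7%), while 13 overlapped. For shCSB/shNDN against shCSB, 1 was above (all genes, 16.5%) and 8 were below (all genes, 18.4%). The 8 are 38.1% of the 21, and this difference from the share of all genes was not tested. For shCSB against shControl, 5 were above (all genes, 18.3%) and 3 below (all genes, 18.1%).

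By limma, 0 of the 21 passed the threshold in each comparison, where 0.00615%, 0% and 0% of all genes did for shCSB/shNDN against shControl, shCSB/shNDN against shCSB and shCSB against shControl. The moderated F test over the 3 groups also passed 0 of the 21 and 0.00615% of all genes, which is 1 gene. An unadjusted p under 0.05 was found for 2 of the 21 against shControl, Zrsr1 and Impact, both lower, beside 13.4% of all genes. It was found for 3 of the 21 for shCSB/shNDN against shCSB, Gnas, Impact and Usp29, beside 8.43%, and for 0 for shCSB against shControl, beside 1.94%. With limma-voom on the recovered reads, 0 of the 21 passed in each comparison, while 6, 0 and 0 of all genes did. By that tool an unadjusted p under 0.05 was found for 3, 4 and 0 of the 21, beside 13.9%, 8.53% and 1.44% of all genes.

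**Figure D1:**
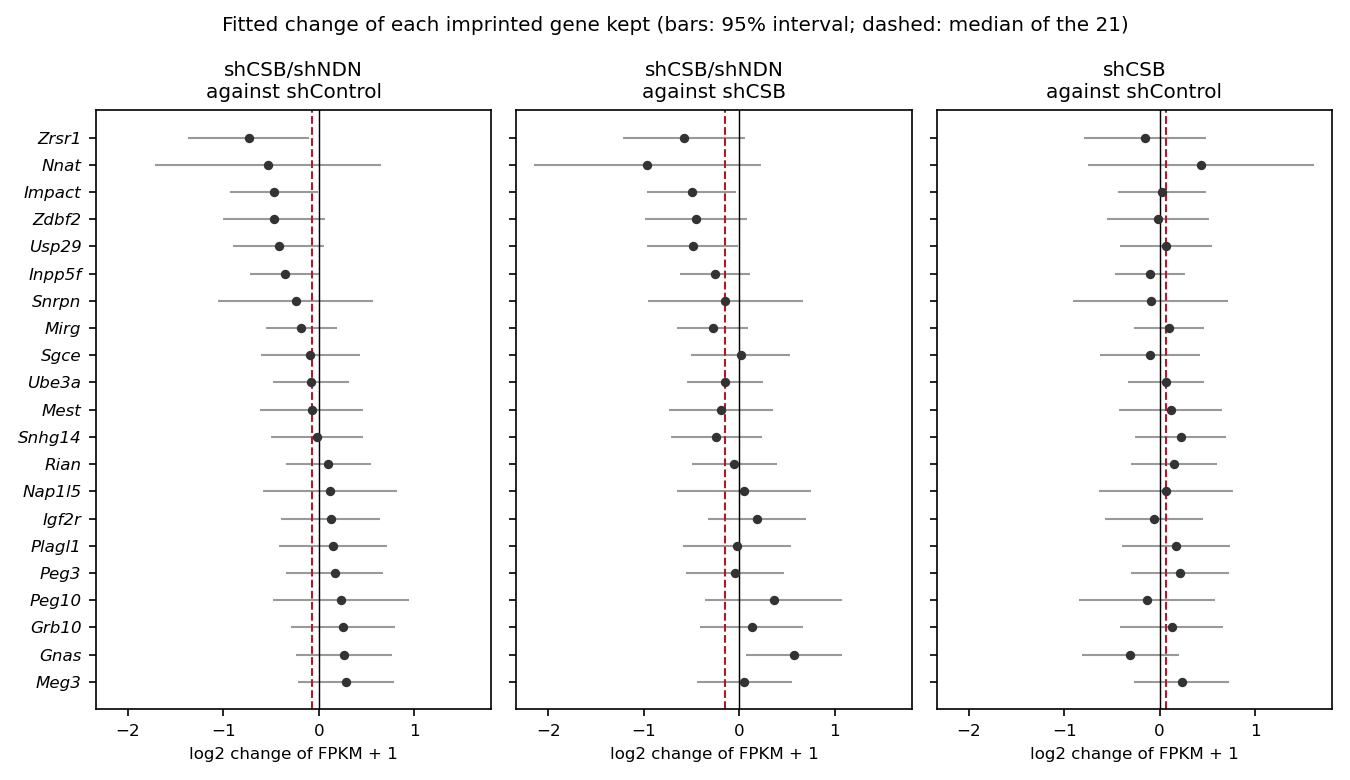
Fitted log2 change of FPKM + 1 of the 21 tested imprinted genes in the 3 comparisons, with bars for the 95% interval, a solid line at 0 and a dashed line at the median of the 21. In shCSB/shNDN against shControl the genes run from Zrsr1 at -0.73 to Meg3 at 0.28, and in shCSB against shControl every interval includes 0.

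Levels spanned about 3 orders of magnitude. The mean FPKM over all 6 libraries was at least 100 for Snrpn, Nap1l5 and Meg3, from 10 to 100 for 5 genes, from 1 to 10 for 10 genes and under 1 for Zdbf2, Snhg14 and Usp29. Over the 6 libraries the highest value of a gene was 1.28 to 3.25 times its lowest, with a median of 1.73 over the 21 genes and 1.76 over the genes kept that were above 0 in every library. By this measure the imprinted genes lay close to genes at large, a comparison that was not tested.

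**Figure D2:**
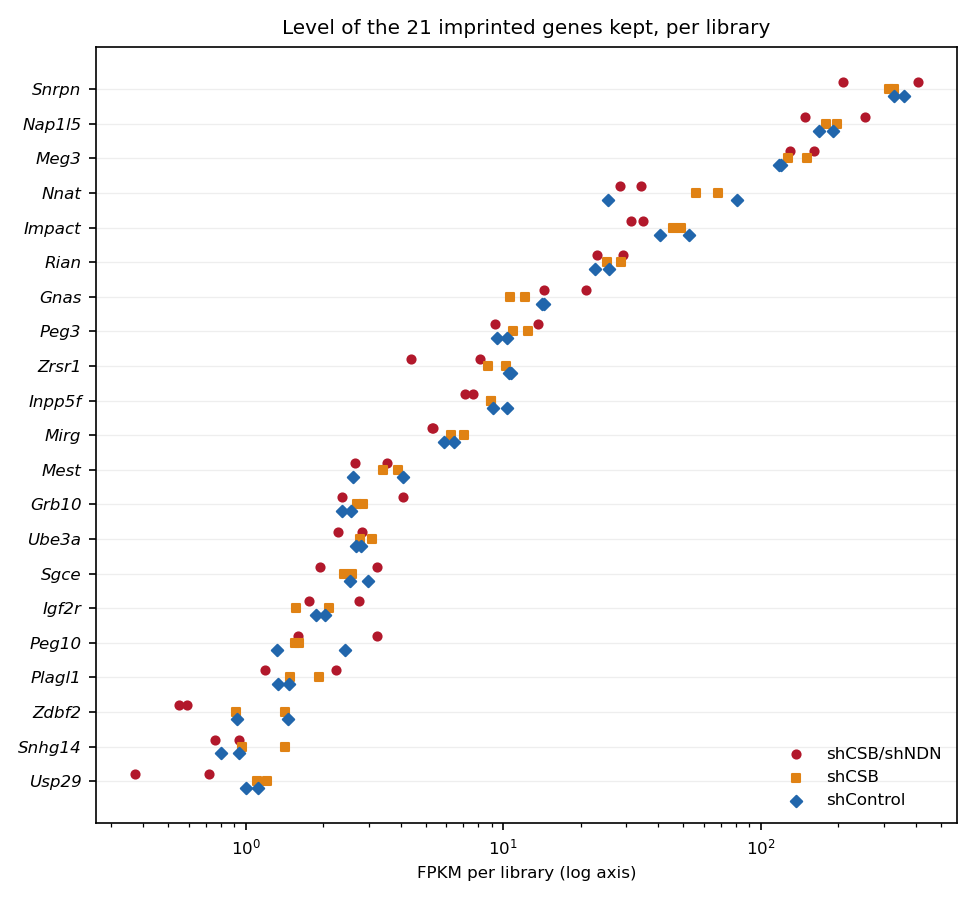
FPKM of the 21 tested imprinted genes in each library, on a log axis, with genes ordered by their mean and 1 point per library (2 per group). Snrpn reaches 407 in a library labelled shCSB/shNDN, and the points of Usp29, Zdbf2, Inpp5f, Zrsr1 and Impact for shCSB/shNDN lie to the left of the other 4.

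In the Prader-Willi/Angelman domain, which also holds Ndn, Snrpn encodes a core protein of the spliceosome in neurons. Snrpn (ENSMUSG00000102252, GRCm38 chromosome 7, 59982495 to 60140219, minus strand) had FPKM values of 208 and 407 in shCSB/shNDN, 330 and 315 in shCSB, and 330 and 360 in shControl. The shCSB/shNDN libraries were at once the lowest and the highest, on either side of all others. Relative to shControl, its log2 change in shCSB/shNDN was -0.24 ± 0.34 (SE), and the 95% interval ran from -1.05 to 0.57 (limma adjusted p = 0.787). Leaving out replicate 1 of shCSB/shNDN gave 0.24 and leaving out replicate 2 gave -0.72, so the direction rests on a single library. Of its exon bases, 27.3% are shared with other genes on its strand. Snurf, which is read from the same transcripts as Snrpn, was listed at 0 in every library, and 100% of its exon bases lie in such genes, so its level cannot be read from this table.

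Snhg14 is the long host RNA of snoRNA clusters and runs antisense into Ube3a in neurons, where it silences the paternal copy of that gene. It had an FPKM of 0.761 and 0.938 in shCSB/shNDN, 0.964 and 1.42 in shCSB, and 0.944 and 0.801 in shControl. Both shCSB values were above the other 4, by a small margin for replicate 1. Ube3a encodes a ubiquitin ligase whose maternal loss causes Angelman syndrome, and it stayed between 2.27 and 3.09 in all libraries, with overlapping groups. Of its exon bases 27.3% face genes on the opposite strand, Snhg14 among them, and whether reads were counted by strand is not given in the sources used here. The table lists 208 snoRNA entries within Snhg14, and 11 of them had a read in any library.

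The intronless genes next to Ndn were near the floor. Magel2, a necdin relative that activates ubiquitin ligases, had 3 and 15 reads in shCSB/shNDN, 13 and 7 in shCSB, and 25 and 9 in shControl. Mkrn3, a makorin protein that restrains the onset of puberty, had 19 and 23 reads in shCSB/shNDN, 13 and 21 in shCSB, and 17 and 11 in shControl. Its FPKM of 0.528 in replicate 2 of shCSB/shNDN was the highest value among the 13 genes that were not kept. Peg12, of the Frat family of proteins that bind GSK3, had at most 2 reads.

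In the Peg3 domain, Usp29 and Peg3, whose RefSeq starts are separated by the 163 bases printed above, had unlike values. The deposited table places their starts at 6730578 and 6730431, inside that stretch. Usp29, a ubiquitin-specific protease gene (ENSMUSG00000051527, GRCm38 chromosome 7, 6730578 to 6967219, plus strand), had FPKM values of 0.723 and 0.372 in shCSB/shNDN, 1.10 and 1.21 in shCSB, and 1.12 and 1.00 in shControl. Both shCSB/shNDN libraries were below all others, and their mean was 51.7% of that in shControl and 47.3% of that in shCSB. Its log2 change was -0.42 ± 0.20 (SE) against shControl and -0.49 ± 0.20 against shCSB, and neither passed the threshold (limma adjusted p = 0.412 and 0.585). With replicate 2 of shCSB/shNDN left out they were -0.26 and -0.32. At this low level the added 1 shrinks the change: limma-voom on the recovered reads gave -0.91 and -1.13 (adjusted p = 0.294 and 0.465).

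Peg3 encodes a zinc finger protein and is read from the other side of that stretch. It had 9.26 and 13.6 in shCSB/shNDN, 10.9 and 12.4 in shCSB, and 10.4 and 9.48 in shControl. The shCSB/shNDN libraries again enclosed all others, and both shCSB libraries were above both of shControl. Relative to shControl, the change of Peg3 in shCSB/shNDN was 0.17 ± 0.21 on the log2 scale (limma adjusted p = 0.762). The difference between the changes of Usp29 and Peg3 was not tested. Of the exon bases of Usp29, 14.3% face another gene on the opposite strand. Zim1, another zinc finger gene of the domain, had 8 and 8 reads in shCSB/shNDN, 8 and 29 in shCSB, and 14 and 14 in shControl.

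The maternally expressed RNAs of the Dlk1/Meg3 domain had the highest FPKM of the noncoding genes of the list. Meg3, a long nuclear RNA (ENSMUSG00000021268, GRCm38 chromosome 12, 109541001 to 109571726, plus strand), had FPKM values of 130 and 161 in shCSB/shNDN, 128 and 152 in shCSB, and 120 and 117 in shControl. All 4 libraries with the CSB hairpin were above both of shControl, and no test was passed. Relative to shControl, the log2 change was 0.28 ± 0.21 (SE) in shCSB/shNDN, where its 95% interval ran from -0.22 to 0.78, and 0.23 ± 0.21 in shCSB (limma adjusted p = 0.586 and 1). The first was 0.44 when shCSB/shNDN replicate 1 was left out and 0.13 when its replicate 2 was. These comparisons share the shControl libraries. Rian, the next RNA of the domain and host of C/D snoRNAs, had 23.2 and 29.1 in shCSB/shNDN, 25.3 and 28.7 in shCSB, and 25.7 and 22.8 in shControl, with overlap throughout.

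Mirg, the host RNA of a miRNA cluster, had 5.34 and 5.27 in shCSB/shNDN, 7.04 and 6.27 in shCSB, and 6.43 and 5.88 in shControl. Both shCSB/shNDN libraries were below all others and close to each other. Dlk1, a membrane ligand of Notch-like structure expressed from the paternal copy, had only 2 and 21 reads in shCSB/shNDN, 5 and 3 in shCSB, and 17 and 16 in shControl.

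Of 15 miRNA entries of the table within Mirg, 7 had a read. RefSeq places 14 miRNA hairpins there, with 26 mature miRNAs and 25 different seeds, the bases 2 to 8 that pair with targets; only miR-453 and miR-496a-5p share a seed. Mir541 had 7 and 23 reads in shCSB/shNDN, 10 and 10 in shCSB, and 12 and 5 in shControl, and its mature arms are printed as an example of what Mirg carries, with the seed in capitals. Both arms lie between 109742422 and 109742487 on the plus strand of GRCm38 chromosome 12. Total RNA libraries do not separate mature miRNAs from their host RNA, so these reads are not levels of the miRNAs.

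miR-541-5p: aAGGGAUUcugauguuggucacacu

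miR-541-3p: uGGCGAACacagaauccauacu

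Of the 21 tested genes, Gnas had the highest fitted change between the shCSB/shNDN and shCSB libraries. It encodes the stimulatory G protein subunit and, from other promoters, further transcripts of either parental origin. Gnas (ENSMUSG00000027523, GRCm38 chromosome 2, 174284320 to 174346744, plus strand) had FPKM values of 14.5 and 21.0 in shCSB/shNDN, 12.2 and 10.6 in shCSB, and 14.2 and 14.4 in shControl. Both shCSB/shNDN libraries were above all others, replicate 1 by little, and both shCSB libraries were the lowest. The log2 change was 0.57 ± 0.21 (SE) against shCSB and 0.27 ± 0.21 against shControl (limma adjusted p = 0.567 and 0.609). Without shCSB/shNDN replicate 1 the change against shCSB was 0.83 and passed the threshold (adjusted p = 0.0419), in a fit that passed 893 genes in all. The group is then a lone library, assumed to vary like the libraries of the other groups. Leaving out replicate 2 instead gave 0.32 against shCSB and 0.015 against shControl, so the size of the change rests on that library. Of its exon bases, 22.0% face Nespas and Gm20721 on the other strand, and Nespas had at most 1 read in any library.

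Nnat, a small membrane protein of the endoplasmic reticulum of neurons, was the most uneven of the well covered genes. Nnat (ENSMUSG00000067786, GRCm38 chromosome 2, 157560078 to 157562522, plus strand) had 34.4 and 28.3 in shCSB/shNDN, 68.2 and 55.8 in shCSB, and 80.6 and 25.5 in shControl. Both shCSB/shNDN libraries were below both of shCSB, while the shControl libraries were the highest and the lowest of all. The log2 change was -0.96 ± 0.49 (SE) against shCSB and -0.53 ± 0.49 against shControl (limma adjusted p = 0.653 and 0.672), and the second was 0.28 when shControl replicate 1 was left out and -1.34 when its replicate 2 was. Blcap, the imprinted gene in whose intron Nnat lies, had 22.0 and 20.3 in shCSB/shNDN, 25.8 and 22.9 in shCSB, and 29.4 and 27.3 in shControl. Its change against shControl was -0.41 ± 0.16 (adjusted p = 0.359).

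The remaining genes with shCSB/shNDN values below all others are imprinted alone or in small domains. Zrsr1 is a retrotransposed gene within an intron of Commd1 and encodes a relative of the splicing factor U2AF1. Zrsr1 (ENSMUSG00000044068, GRCm38 chromosome 11, 22972005 to 22976496, plus strand) had FPKM values of 8.11 and 4.37 in shCSB/shNDN, 10.2 and 8.72 in shCSB, and 10.5 and 10.7 in shControl. The order of the groups had no overlap, and replicate 2 of shCSB/shNDN was the lowest by far. Its log2 change against shControl was -0.73 ± 0.26 (SE), its 95% interval ran from -1.37 to -0.10, and its p was the smallest of the 21 genes in that comparison (limma adjusted p = 0.334). Against shCSB it was -0.58 ± 0.26 (adjusted p = 0.622).

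Zrsr1 passed the threshold only without shCSB/shNDN replicate 1, at -1.11 against shControl and -0.96 against shCSB (limma adjusted p = 0.0185 and 0.0350), in fits that passed 1808 and 893 genes in all and whose spread comes from the other groups alone. They were -0.35 and -0.20 when replicate 2 of that group was left out. Commd1, whose product acts in copper and endosome transport, had 1.56 and 1.61 in shCSB/shNDN, 1.41 and 1.28 in shCSB, and 1.88 and 1.88 in shControl, so it was higher in shCSB/shNDN than in shCSB, the opposite order to Zrsr1. Of the exon bases of Zrsr1, 9.17% face Commd1.

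Impact encodes an inhibitor of the kinase GCN2, which slows translation under amino acid shortage, and is abundant in neurons. It had FPKM values of 31.3 and 35.0 in shCSB/shNDN, 48.9 and 45.4 in shCSB, and 52.6 and 40.8 in shControl. Both shCSB/shNDN libraries were below all others, and the shCSB values lay within the range of shControl. The log2 change was -0.47 ± 0.19 (SE) against shControl and -0.50 ± 0.19 against shCSB, with 95% intervals from -0.93 to -0.01 and from -0.96 to -0.04 (limma adjusted p = 0.367 and 0.578). The first was -0.29 when shControl replicate 1 was left out. Its mean in shCSB/shNDN was 71.0% of that in shControl and 70.2% of that in shCSB. The neuron marker sum given above was also lowest in the shCSB/shNDN libraries, and its part in this value was not tested.

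Zdbf2, a zinc finger gene that affects growth and feeding in mice, had 0.593 and 0.549 in shCSB/shNDN, 1.42 and 0.914 in shCSB, and 1.46 and 0.926 in shControl. The shCSB/shNDN pair was the lowest and the closest, and in the other groups replicate 1 was well above replicate 2. Zdbf2 had a log2 change of -0.47 ± 0.22 (SE) against shControl and -0.45 ± 0.22 against shCSB (limma adjusted p = 0.406 and 0.642), and of -0.92 and -0.96 with limma-voom (adjusted p = 0.327 and 0.558). The fitted changes were both -0.29 when the higher library of the group compared, replicate 1 of shControl or of shCSB, was left out.

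Inpp5f, a phosphoinositide phosphatase gene of which a transcript variant is imprinted in brain, had 7.62 and 7.08 in shCSB/shNDN, 8.99 and 8.92 in shCSB, and 10.3 and 9.09 in shControl. The groups did not overlap and stood in the same order as those of Zrsr1. The log2 change of Inpp5f was -0.36 ± 0.15 (SE) against shControl and -0.25 ± 0.15 against shCSB (limma adjusted p = 0.381 and 0.695). A sum over all transcripts cannot show the imprinted variant.

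**Figure D3:**
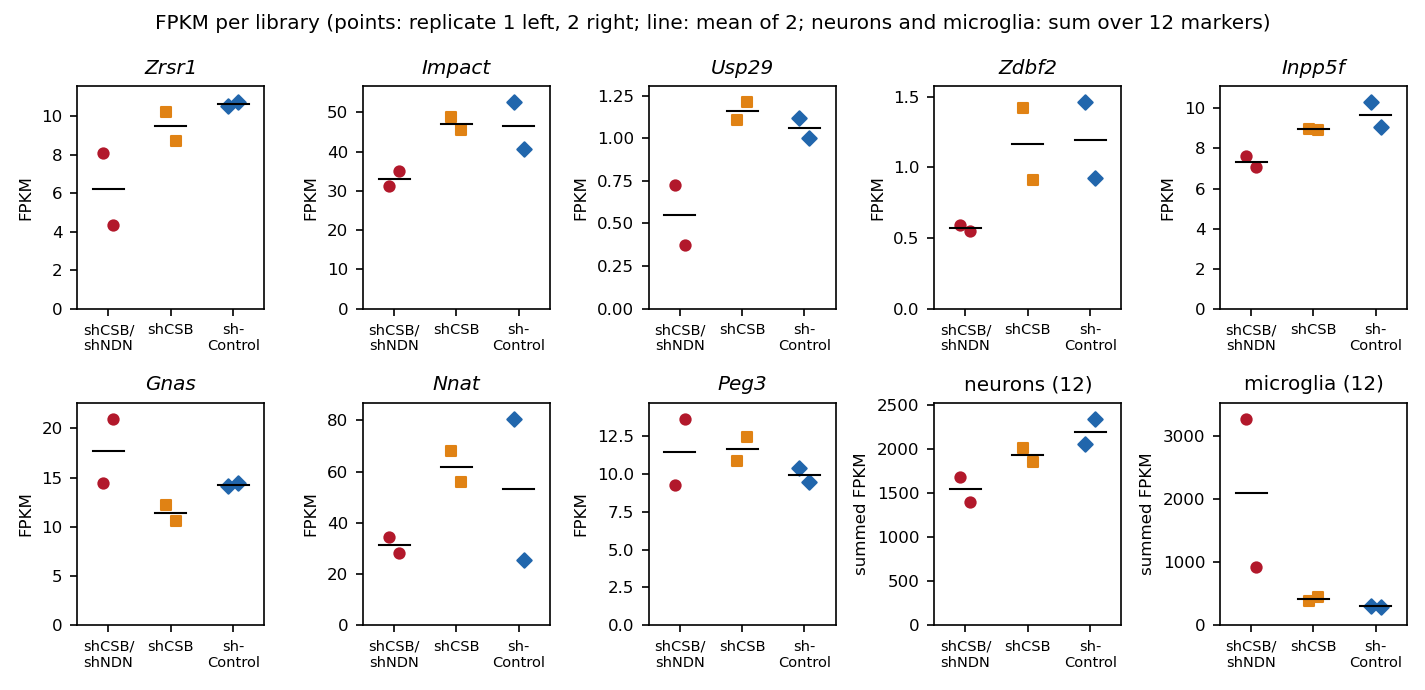
FPKM per library of 8 imprinted genes and summed FPKM of 12 neuron and 12 microglia markers, with axes from 0, points for the 2 libraries of a group and a line at their mean. Zrsr1, Impact, Usp29, Zdbf2 and Inpp5f are lowest in both shCSB/shNDN libraries, as is the neuron sum at 1675 and 1400, while the microglia sum is highest there at 3275 and 926.

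Nap1l5, a nucleosome assembly protein gene within Herc3, had 149 and 255 in shCSB/shNDN, 198 and 179 in shCSB, and 191 and 168 in shControl. As with Snrpn, replicate 1 of shCSB/shNDN was the lowest library and replicate 2 the highest. Relative to shControl, its log2 change in shCSB/shNDN was 0.12 ± 0.29 (SE; limma adjusted p = 0.889), and -0.27 when replicate 2 of shCSB/shNDN was left out. Herc3 had 12.1 and 16.0 in shCSB/shNDN, 14.9 and 16.0 in shCSB, and 13.2 and 13.9 in shControl, with the same lowest library.

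Growth-related genes gave low levels. Grb10, an adaptor that dampens insulin and growth factor receptor signalling, had 2.37 and 4.09 in shCSB/shNDN, 2.71 and 2.86 in shCSB, and 2.37 and 2.57 in shControl. Plagl1, a zinc finger transcription factor, had 1.19 and 2.24 in shCSB/shNDN, 1.49 and 1.93 in shCSB, and 1.48 and 1.34 in shControl. Both were higher in shCSB than in shControl in every library, and the shCSB/shNDN pair of each enclosed all other values or met their lower end. Igf2r, the receptor that removes IGF2 and sorts lysosomal enzymes, stayed between 1.57 and 2.76, and Mest, a gene of the hydrolase fold, between 2.62 and 4.09.

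Sgce encodes epsilon-sarcoglycan, whose loss causes myoclonus dystonia, and Peg10 is a neighbour derived from a retrotransposon. Sgce had 3.23 and 1.94 in shCSB/shNDN, 2.59 and 2.40 in shCSB, and 2.97 and 2.54 in shControl. Peg10 had 3.23 and 1.60 in shCSB/shNDN, 1.60 and 1.56 in shCSB, and 1.33 and 2.43 in shControl. For both genes replicate 1 of shCSB/shNDN was the highest library. Over 11 tested genes, Peg3 and the 10 whose changes are not given one by one, the fitted log2 changes ran from -0.18 to 0.25 for shCSB/shNDN against shControl, from -0.28 to 0.36 against shCSB, and from -0.13 to 0.22 for shCSB against shControl. The outermost ends of their 95% intervals were -0.61 and 0.94, -0.73 and 1.07, and -0.84 and 0.74, in the same order. These ends belong to single genes and are not a limit of detection.

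Of the 13 genes that were not kept, Snurf and Phlda2, a placental growth gene, were at 0 in all 6 libraries, and 5 of the 13 were at 0 in at least 1. Only Kcnq1ot1 and Mkrn3 had at least 10 reads in every library. Kcnq1ot1, a long antisense RNA that silences its domain, had 178 and 168 reads in shCSB/shNDN, 191 and 303 in shCSB, and 206 and 205 in shControl, few for its length. Igf2, a growth factor of the meninges and choroid plexus in the adult brain, had 15 and 16 reads in shCSB/shNDN, 3 and 2 in shCSB, and 12 and 3 in shControl, and 62.8% of its exon bases are shared with other genes on its strand. H19, the maternally expressed RNA beside Igf2, had 12 and 0 reads in shCSB/shNDN, 0 and 23 in shCSB, and 3 and 2 in shControl. Airn, an RNA that silences Igf2r outside neurons, Asb4, an ankyrin repeat gene, and Slc38a4, an amino acid transporter gene, had at most 27 reads. With no filter on low values, 32 of the 34 genes were tested and none passed, with a smallest limma adjusted p of 0.499, 0.727 and 1 in the shCSB/shNDN against shControl, shCSB/shNDN against shCSB and shCSB against shControl comparisons.

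The median log2 change of the 21 was -0.074 for shCSB/shNDN against shControl, beside -0.0075 over all genes kept, with 9 above 0 and 12 below. It was -0.15 for shCSB/shNDN against shCSB, beside -0.0083, with 7 above 0 and 14 below. For shCSB against shControl it was 0.067, beside -0.0035, with 13 above 0 and 8 below. Among all genes kept, 49.0%, 48.8% and 49.2% were above 0 in these comparisons, in the same order. Each pair of these comparisons shares 2 libraries, so their values are not independent. The first median was 0.013 when only genes averaging an FPKM of 1 or more were read and 0.029 with limma-voom, so its sign differs between settings. The second was -0.054 with no filter, -0.047 for genes averaging 1 or more, and -0.038 when replicate 1 of shCSB/shNDN was left out, but -0.26 when its replicate 2 was.

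**Figure D4:**
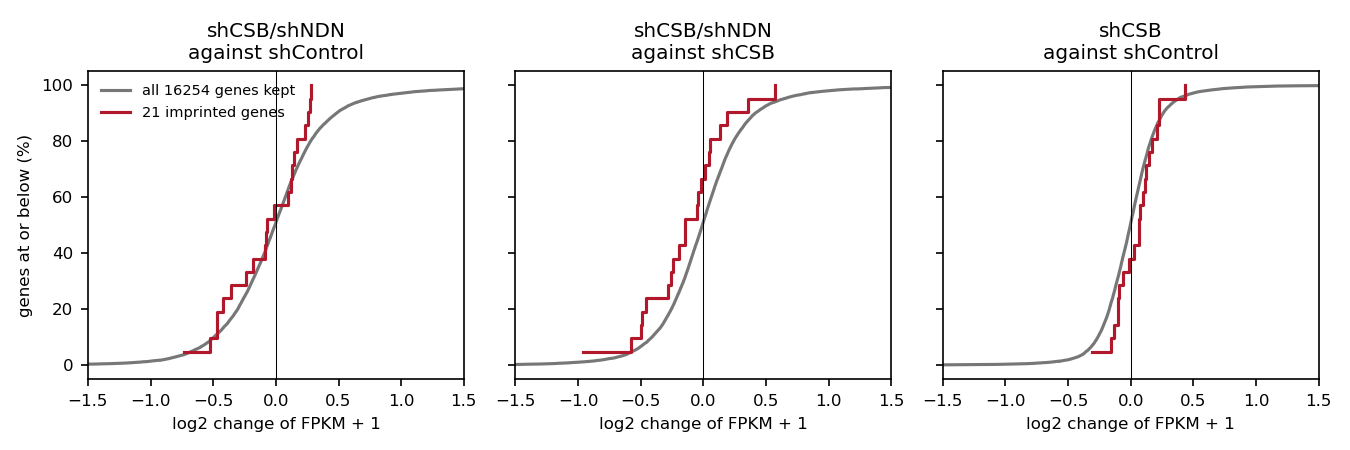
Share of genes at or below each fitted log2 change, for the 21 imprinted genes (steps) and all 16254 genes kept (smooth line), in the 3 comparisons. In shCSB/shNDN against shControl the steps end at 0.28 on the right, and in shCSB/shNDN against shCSB they lie to the left of the smooth line over most of the range, with medians of -0.15 and -0.0083; the first is -0.038 without replicate 1 of shCSB/shNDN.

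Split by the parental copy that is known to be used, 13 of the 21 tested genes are paternally expressed and 3 maternally expressed. Ube3a, Grb10, Igf2r, Gnas and Inpp5f are in neither set, because the copy used depends on cell type, promoter or transcript. Of the 13, 9 had a fitted change below 0 for shCSB/shNDN against shControl and 10 for shCSB/shNDN against shCSB, with medians of -0.088 and -0.19. Among all 16254 genes kept, 8287 and 8311 were below 0 in these comparisons. The 3 maternally expressed genes are Meg3, Rian and Mirg, with medians of 0.099 and -0.050. These 3 share a domain and are not independent, and the difference between the sets was not tested.

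A further 50 imprinted genes of the table, Ndn among them, were set beside the list, of which 35 were kept and 0 passed the threshold by limma. Their median log2 change was 0.025 for shCSB/shNDN against shControl, with 18 above 0, and 5, or 14.3%, had an unadjusted p under 0.05, Ndn included, beside 13.4% of all genes. Rasgrf1, a neuronal activator of Ras, had 19.7 and 8.39 in shCSB/shNDN, 28.5 and 23.1 in shCSB, and 30.8 and 24.1 in shControl. Its log2 change was -1.02 ± 0.37 (SE) against shControl and -0.93 ± 0.37 against shCSB (limma adjusted p = 0.337 and 0.585). Pon3, a paraoxonase gene, had 3.90 and 0.898 in shCSB/shNDN, 0.325 and 0.216 in shCSB, and 0.200 and 0.119 in shControl, with changes of 1.40 ± 0.42 and 1.26 ± 0.42 (adjusted p = 0.301 and 0.545). Its higher library is replicate 1 of shCSB/shNDN, the library with the microglia sum of 3275, and the part of that sum was not tested.

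Others of these genes with the smallest p were Peg13 at -0.68 and Pon2 and Tnfrsf23 at 0.39 and 0.43 for shCSB/shNDN against shControl. For shCSB/shNDN against shCSB they were Xlr3b at -0.64, Cobl at -0.43, Pon2 at 0.43 and Tssc4 at 0.38. For shCSB against shControl they were Kcnk9 at 0.36, Cobl at 0.31, Slc22a18 at 0.27, Ascl2 at -0.35, Commd1 at -0.30 and Blcap at -0.21, with a limma adjusted p of 1 each. Copg2, which faces 23.1% of the exon bases of Mest, had 7.01 and 12.2 in shCSB/shNDN, 9.12 and 9.95 in shCSB, and 10.04 and 10.3 in shControl. Kcnq1, which overlaps Kcnq1ot1, had at most 28 reads.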

How the data were processed

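Libraries were made with a stranded kit for total RNA, per the labels' protocols, from 6 samples of V1, 2 for each of 3 groups. The authors deposited FPKM in a single table of 54532 entries. The submitters' processing notes name FastQC, HISAT2 2.0.4 and GRCm39, per the labels; the program that counted reads, its use of strand and the annotation are not given in the sources used here, so values of overlapping and antisense genes are uncertain. Of 54409 gene identifiers shared with GENCODE M21, a GRCm38 annotation, 53499 (98.3%) have its positions in the table, as do 33 of the 34 genes, so coordinates are GRCm38; Impact differed and its position is left out. Dates in place of 27 symbols were reversed by identifier, and 100 repeated symbols were summed.

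Multiplied by gene length, 100% of the deposited FPKM values in each library were whole multiples of 1 read (tolerance 0.01), which gave the reads. Limits from a count of 0 cover counting error only.

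Tests were run on genes that reached an FPKM of 0.5 in 2 or more libraries. Group means of log2(FPKM + 1), a scale that understates changes of low genes, were fitted across the 6 libraries by limma 3.58.1 (R 4.3.3), with a trend of variance on mean; residual degrees of freedom were 3, and the prior added 3.42. P-values are two-sided and were adjusted by Benjamini-Hochberg over every gene tested, with a threshold of 0.05. The fitting step was also run on simulated reads with the same spread in every group. The spread in these data is not equal between groups, so that run does not cover it. An exact permutation test of 2 against 2 libraries cannot pass the threshold.

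The genes and lists were chosen with earlier results of these data known. Named were all 34 genes, Ercc6, Ndn, other imprinted genes with up to 3 of the smallest p per direction and comparison or overlapping a listed gene, and marker lists. Changes are given for genes with an unadjusted p under 0.10 in a shCSB/shNDN comparison or a mean FPKM of 100 or more, chosen after values were seen, and for Peg3 as the partner of Usp29. Alternatives were a pseudocount of 0.1, no filter, a minimum mean FPKM of 1, a block for replicate number, a fit to the compared libraries only, quantile or trimmed mean scaling, no trend, limma-voom on the reads, and omission of each library. Python 3.11.15, pandas 2.3.3 and numpy 2.4.6 handled tables and sequences.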

Additional observations from a re-analysis of the deposited data

How the results depend on the processing

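With 2 libraries a group the precision is low, and the shCSB/shNDN pair, which differs most within itself, decides much of the fits. None of the listed genes tested (18 to 32 by filter) passed the threshold in any comparison under the settings run, except Zrsr1 and Gnas when shCSB/shNDN replicate 1 was left out; the further imprinted genes were read in the main setting only. The cause of the differences between settings was not tested. Over all genes, 1 passed for shCSB/shNDN against shControl; this was 0 with no filter and 0 with only the compared libraries, 6 with limma-voom, and 0 to 1808 with a library left out (1808 without shCSB/shNDN replicate 1, 628 without replicate 2 and 0 without any other). For shCSB/shNDN against shCSB the count was 0, and 0 to 893 with a library left out, 893 and 484 without replicate 1 or 2 of shCSB/shNDN. For shCSB against shControl it was 0, 2 with only the compared libraries and 0 to 1 with a library left out. The F test passed 1 gene, 0 with a pseudocount of 0.1, with no filter, with a minimum mean FPKM of 1, with quantile or trimmed mean scaling and with limma-voom, and 0 to 596 with a library left out. The replicate block gave 3 genes for shCSB/shNDN against shControl and 0 in the F test; same-numbered libraries deviated from their group means with correlations of -0.071, -0.016 and 0.054, so the numbers were not taken as pairs.

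The median change of the imprinted genes for shCSB/shNDN against shControl (-0.074) became 0.013 with a minimum mean FPKM of 1 and 0.029 with limma-voom. For shCSB/shNDN against shCSB (-0.15) it was -0.054 with no filter, -0.047 with that minimum and -0.26 to -0.038 with a library left out, the ends being without replicate 2 and without replicate 1 of shCSB/shNDN. For shCSB against shControl (0.067) it was 0.18 with limma-voom. There, Snrpn turned to 0.039 with quantile scaling and Zdbf2 to 0.042 with limma-voom. With a library left out, some changes that had not passed took both signs. For shCSB/shNDN against shControl they ran from -0.72 to 0.24 for Snrpn, -1.34 to 0.28 for Nnat and -0.27 to 0.50 for Nap1l5. Against shCSB they ran from -0.63 to 0.34 for Snrpn, -0.10 to 0.21 for Meg3 and -0.34 to 0.43 for Nap1l5. For shCSB against shControl they ran from -0.38 to 1.24 for Nnat, -0.15 to 0.21 for Impact, -0.023 to 0.16 for Nap1l5 and -0.19 to 0.16 for Zdbf2.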
